A study of Mus musculus with 18 samples.

Results

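The interferon response genes described here are the 49 genes, of 20325 with at least 1 peak in the larger deposited peak table, whose symbols open with Ifit, Ifi and a digit, Oas, Gbp, Irf and a digit, Isg, Irgm or Iigp, or are Mx1 or Mx2, with Irf4 left out. They were chosen by name and not by a measured value, although earlier results of these data were known at the time. The peak table gave them 148 of its 61224 peaks, each 500 bases long. By name and role, 8 members were interferon regulatory factors (among them Irf1, Irf2 and Irf3) and 3 were partners of IRF2 (Irf2bp1, Irf2bp2 and Irf2bpl). A further 5 belonged to the IFIT family, 2 to the IFITM family, 10 to the OAS family, 8 to the GBP family and 3 to the IRG family, with 2 Mx genes, 3 ISG genes and 5 other Ifi genes. No Iigp gene had a peak in the table analysed here, nor had Ifit3, Ifi44, Ifi203, Ifi204, Ifitm1 or Ifitm2.

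ATAC-seq, in which the Tn5 transposase cuts and tags open DNA, gave the chromatin accessibility of 18 libraries of 10000 sorted mouse cells each. The 9 mPTCL libraries came from C57BL/6 p53KO murine peripheral T-cell lymphomas, which followed the transfer of p53KO T cells into syngeneic CD3KO C57BL/6 recipients, and were sorted from liver with no sort marker named. The 9 normal libraries came from wild-type mice, 3 each of splenic CD27- CD11b+ NK cells, of hepatic CD3+ NKT cells bound by a CD1d tetramer with alpha Gal Cer (their titles carry the letters Sp), and of splenic CD3+ thy1+ T cells. The lymphomas thus differ from every normal group in genotype, history and sort, and from NK and T cells in organ, and these cannot be told apart. The 9 lymphomas are numbered in accession order, which pairs them with nothing. The sources do not say whether the 3 libraries of a normal group came from separate animals, so the p-values measure the spread between these libraries, part of which may be technical. The labelled cell types were set against their markers. Summed over the T-cell markers (Cd3e, Cd3d, Cd3g, Thy1, Cd5, Cd28 and Bcl11b), accessibility ran from 395.9 to 829.7 CPM in mPTCL, 299.8 to 394.9 CPM in NK, 898.3 to 945.4 CPM in NKT and 606.6 to 780.6 CPM in T libraries. The sum over the NK-cell markers ran from 92.2 to 162.2 CPM in mPTCL, 134.6 to 164.3 CPM in NK, 28.4 to 39.3 CPM in NKT and 34.4 to 61.3 CPM in T libraries.

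Interferons are secreted when a cell senses viral or bacterial products. Type I interferons signal through the receptor of IFNAR1 and IFNAR2 and the kinases JAK1 and TYK2 to a complex with STAT2 and IRF9, which binds the interferon-stimulated response element (ISRE). Interferon gamma, a product of activated T, NKT and NK cells, signals through JAK1 and JAK2 to factors that bind the gamma-activated site (GAS). The genes downstream encode factors that block viral RNA and protein (IFIT, OAS, Mx and ISG proteins) and large GTPases that attack intracellular pathogens (GBP and IRG proteins), and among the IRF factors IRF1 activates and IRF2 mostly represses the same elements.

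The promoters of members of 6 families are shown because their cores are the letters that IRF and STAT complexes read, and because the peaks over them enter the results below. The sequences are RefSeq windows on GRCm38.p6 of 300 bases, from 250 before to 50 after a start site. RefSeq windows were matched for 37 of the 49 members, 48 windows in all. The capitals mark the ISRE core GAAANNGAAA or its reverse TTTCNNTTTC, and cores that overlap run together.
Ifit1: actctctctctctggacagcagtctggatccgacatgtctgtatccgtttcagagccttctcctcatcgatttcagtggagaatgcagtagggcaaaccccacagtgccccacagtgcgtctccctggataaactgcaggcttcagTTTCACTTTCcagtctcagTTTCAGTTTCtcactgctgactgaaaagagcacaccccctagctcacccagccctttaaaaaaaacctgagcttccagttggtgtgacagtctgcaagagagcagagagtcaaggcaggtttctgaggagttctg
Irf2: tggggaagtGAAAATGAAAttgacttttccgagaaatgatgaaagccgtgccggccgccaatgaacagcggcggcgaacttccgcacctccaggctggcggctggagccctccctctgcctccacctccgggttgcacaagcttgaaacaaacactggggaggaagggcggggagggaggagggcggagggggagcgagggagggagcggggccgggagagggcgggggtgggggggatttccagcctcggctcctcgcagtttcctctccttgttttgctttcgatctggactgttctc
Isg15: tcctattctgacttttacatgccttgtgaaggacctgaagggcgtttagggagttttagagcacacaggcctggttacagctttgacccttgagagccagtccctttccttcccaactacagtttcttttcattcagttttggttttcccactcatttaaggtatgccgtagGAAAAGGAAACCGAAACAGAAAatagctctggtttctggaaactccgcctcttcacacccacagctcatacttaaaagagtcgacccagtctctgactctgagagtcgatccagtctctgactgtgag
Oas1c: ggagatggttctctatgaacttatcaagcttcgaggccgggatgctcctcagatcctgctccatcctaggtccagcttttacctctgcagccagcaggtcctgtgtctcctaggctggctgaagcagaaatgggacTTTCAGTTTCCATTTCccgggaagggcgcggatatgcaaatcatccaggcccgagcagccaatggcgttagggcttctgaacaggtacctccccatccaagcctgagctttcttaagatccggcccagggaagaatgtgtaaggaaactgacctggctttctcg
Irgm1: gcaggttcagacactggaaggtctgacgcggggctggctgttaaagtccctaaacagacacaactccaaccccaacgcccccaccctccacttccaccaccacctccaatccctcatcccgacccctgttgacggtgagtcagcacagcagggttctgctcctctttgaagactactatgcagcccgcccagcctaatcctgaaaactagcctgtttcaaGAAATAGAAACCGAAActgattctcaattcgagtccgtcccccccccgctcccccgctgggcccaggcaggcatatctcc
Gbp7: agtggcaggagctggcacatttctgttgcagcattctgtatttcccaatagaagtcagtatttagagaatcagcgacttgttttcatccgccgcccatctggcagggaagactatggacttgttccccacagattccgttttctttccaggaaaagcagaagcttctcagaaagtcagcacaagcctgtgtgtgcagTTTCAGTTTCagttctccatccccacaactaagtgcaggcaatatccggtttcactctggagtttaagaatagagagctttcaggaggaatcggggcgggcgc
The Ifit1 window lies at chr19:34640639-34640938 on the plus strand, with cores 104 and 85 bases before the start. The Irf2 window is chr8:46739495-46739794 on the plus strand, with its core 241 bases before the start. The Isg15 window, chr4:156200769-156201068 on the minus strand, holds 3 overlapping cores, at 78, 72 and 66 bases before the start. The Oas1c window is chr5:120812465-120812764 on the minus strand, with overlapping cores at 114 and 108 bases before the start. The Irgm1 window is chr11:48871371-48871670 on the minus strand, with overlapping cores at 30 and 24 bases before the start, and the Gbp7 window is chr3:142530086-142530385 on the plus strand, with its core 53 bases before the start. A deposited promoter peak overlapped each of these windows. Searched on both strands, the ISRE core stood in 18 of the 48 member windows (37.5%) and in 1131 of all 32851 promoter windows of the RefSeq table (3.44%). The GAS core TTCNNNGAA, a palindrome, stood in 12 of the 48 member windows (25.0%) and in 2726 of all windows (8.30%). By family, an ISRE core was found for 4 of 4 GBP genes with a window, 4 of 5 IFIT genes, 3 of 7 OAS genes, 2 of 3 IRG genes and 1 of 7 IRF genes, the last being Irf2. A match is a string of letters and was not tested as a binding site.

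The values are read counts in peaks. Total counts in peaks ran from 670358 to 4844441 in mPTCL, 417107 to 596601 in NK, 1433904 to 9097014 in NKT and 979441 to 2358023 in T libraries. The members held 0.203 to 0.244% of the counts of an mPTCL library, 0.176 to 0.226% of an NK, 0.229 to 0.251% of an NKT and 0.219 to 0.237% of a T library. The NK libraries were the shallowest. For a gene, counts were summed over all its peaks, and levels are given as CPM (counts scaled to a common library size) after TMM scaling, separately for genes and for peaks, so a gene with 1 peak differs slightly between both scales. A larger CPM means more accessible DNA in the annotated peaks, not more RNA. In bulk samples, fewer accessible cells and less accessibility per cell cannot be told apart. A feature is called higher or lower where edgeR's quasi-likelihood test over all 20325 genes, or over the 61220 peaks with enough counts, gave a Benjamini-Hochberg adjusted p below 0.05, and all tests are two-sided. All 49 genes and all 148 peaks of the members entered the tests. In the lymphomas, the median log2 fold change of whole chromosomes also differed from 0: on chromosome 5, which holds 14 members, the 1470 genes had medians of 0.62 against NK, 0.59 against NKT and 0.53 against T, and on chromosome 11, which holds 5 members, the 1741 genes had medians of 0.65, 0.49 and 0.58 in the same order. Values with each chromosome scaled on its own are given below as an alternative. The part of these shifts in the members' differences was not tested.

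Against NKT cells, the lymphomas had 6 member genes higher and 11 lower of 49. The higher ones were Ifi213, Oas1h, Oas1f, Ifi30, Oas1e and Oas2, and the lower ones included Irf2, Irf3, Ifit1, Ifit2, Isg20, Mx2, Oasl2 and Ifi27l2a. Of all genes, 25.5% were called higher and 20.2% lower in this comparison. The median log2 fold change was -0.17 over the members and 0.06 over all genes. The direction of the calls moved with the scaling: 8 higher and 6 lower with RLE factors or with library totals, 11 and 7 with DESeq2, 3 and 8 with cyclic loess and limma, and 9 and 14 with TMM within each chromosome. With RLE factors the median of all genes was itself 0.19, and with cyclic loess it was -0.06.

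Against T cells, 4 members were higher (Irf1, Ifi47, Ifitm10 and Oas2) and 5 were lower (Irf2, Ifit1, Ifit1bl2, Isg20 and Ifi27l2a). The background was 16.2% of genes higher and 14.7% lower, and the medians were 0.06 over the members and 0.12 over all genes. The split was 4 higher and 3 lower with RLE factors or library totals, 7 and 5 with DESeq2 and 2 and 8 with TMM within each chromosome. Against NK cells, 8 members were higher (Irf1, Oas1b, Oas1c, Oas1f, Oasl1, Oasl2, Irgm1 and Ifi35) and 0 lower, where 11.2% of all genes were higher and 10.3% lower. edgeR found 2 members lower at an unadjusted p under 0.05, DESeq2 called 0 lower and cyclic loess with limma called 4. With TMM within each chromosome 2 members were higher and 1 lower, and with cyclic loess 10 were higher. The median was 0.01 over the members and 0.13 over all genes. The 3 lymphoma comparisons share the same 9 lymphoma libraries, and their counts are not independent of each other. In all, 25 of the 49 members were called in at least 1 of them, and 24 in none, where 60.3% of all genes were called in at least 1.

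**Figure D1:**
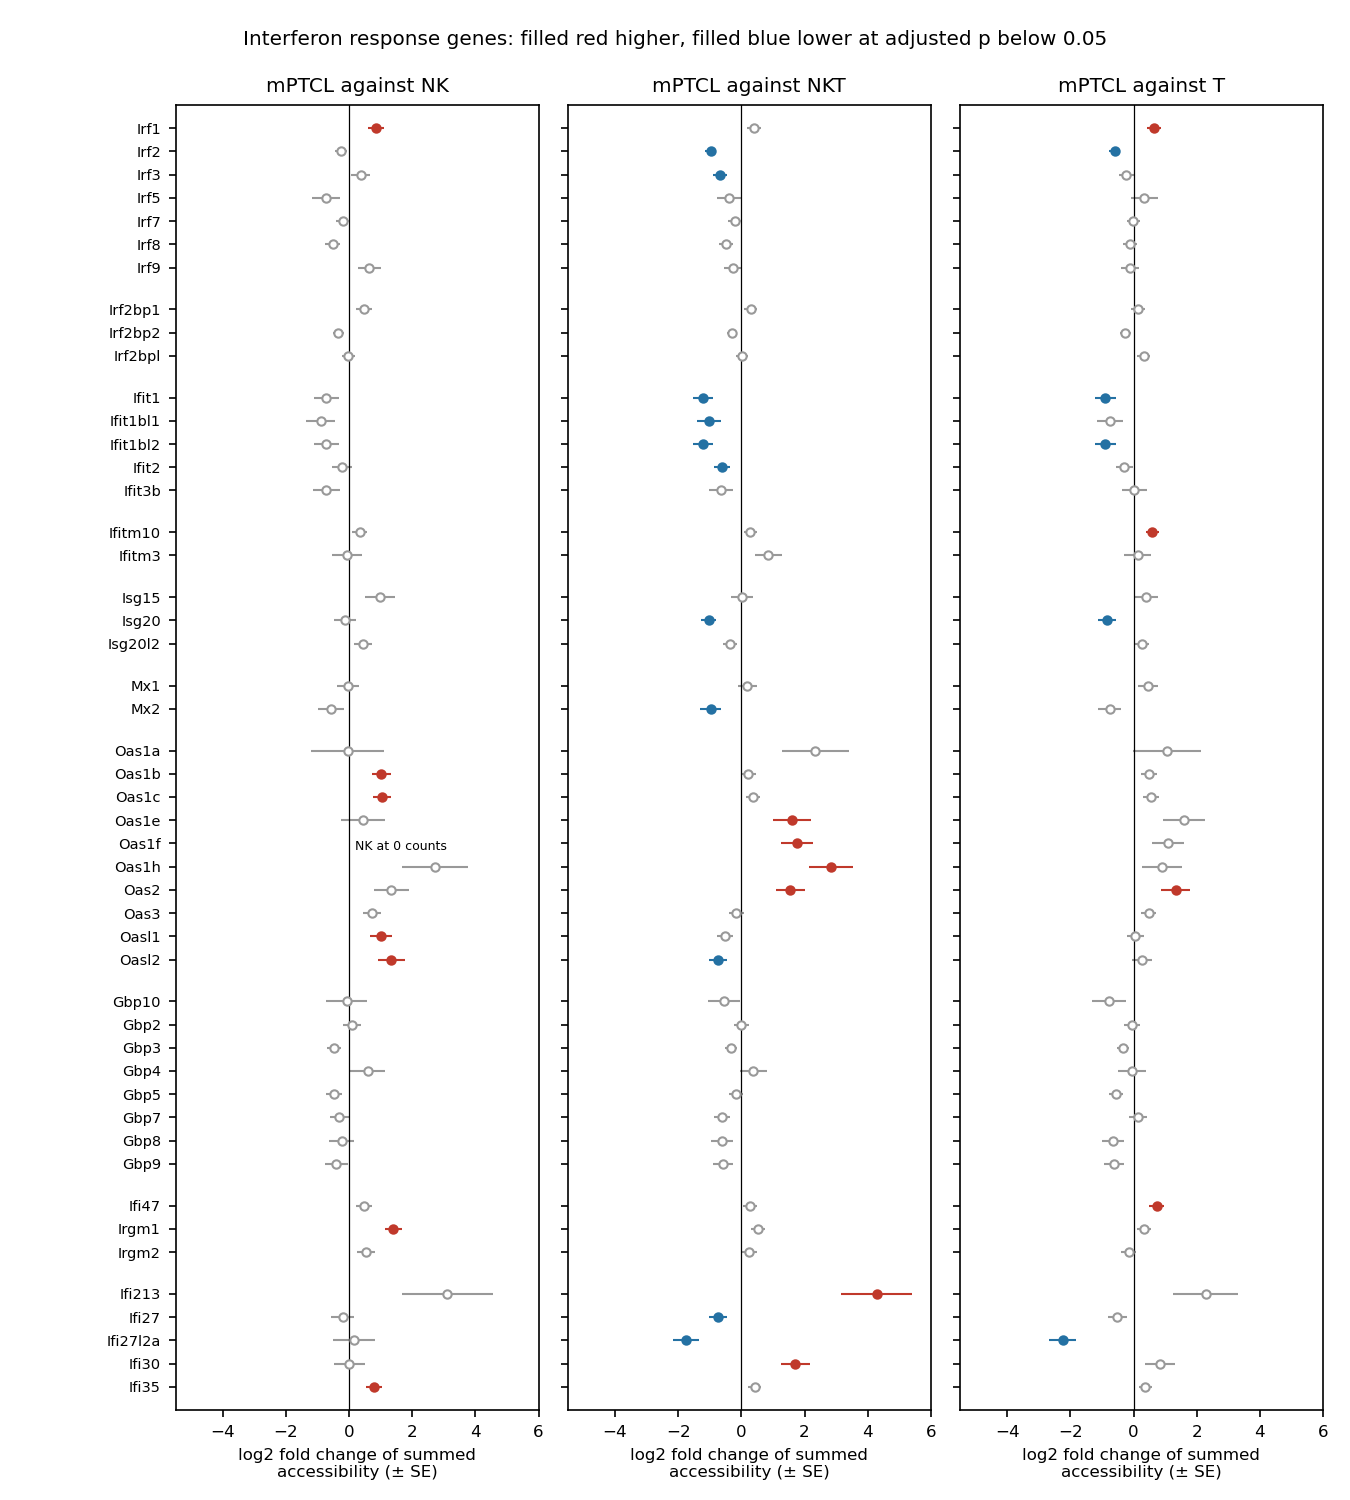
Log2 fold changes of summed accessibility (± SE) for the members reported here in mPTCL against NK, NKT and T, grouped by family from top to bottom; filled red points are called higher and filled blue points lower. Oas1f is not drawn against NK, where it had 0 counts, and blue points stand only in the NKT and T panels, 11 and 5 of them.

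Among the transcription factors, Irf2 was lower in the lymphomas than in NKT and T cells. IRF2 competes with IRF1 for the same DNA elements and is known mostly as a repressor. Summed over its 7 peaks, Irf2 had 71.2, 101.6 and 131.8 CPM in the lowest, median and highest mPTCL library, against 112.9, 92.8 and 158.4 CPM in NK, 194.9, 210.7 and 192.9 CPM in NKT and 151.2, 176.0 and 135.5 CPM in T libraries. All 9 lymphomas lay below every NKT and every T library, while they overlapped the NK libraries. The log2 fold change was -0.97 ± 0.17 (SE) against NKT (adjusted p = 9.6e-05), -0.60 ± 0.18 against T (adjusted p = 0.0127) and -0.26 ± 0.19 against NK, which was not called. The NKT call held in all alternatives run, and the T call was lost with cyclic loess (-0.48) and in the smaller peak table (-0.47) and without T 2.

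Within the Irf2 gene on chromosome 8, the difference was spread over the promoter and several introns, and the normal groups did not share 1 pattern. The promoter peak, chr8:46739186-46739686, which overlaps the Irf2 window printed above and is also annotated to Gm16675, had 15.9, 36.6 and 52.9 CPM in the lowest, median and highest mPTCL library, against 72.5, 27.5 and 47.5 CPM in NK, 92.9, 86.3 and 87.5 CPM in NKT and 75.6, 89.9 and 75.2 CPM in T libraries. Every lymphoma lay below every NKT and T library there (-1.23 ± 0.24 against NKT, adjusted p = 2.3e-04; -1.08 ± 0.25 against T, adjusted p = 0.00236). With cyclic loess these were -0.56 and -0.67 with no call, and the T call was lost without T 2. The intronic peak 42814 bases after the start, chr8:46782309-46782809, had 2.79, 7.47 and 16.6 CPM in mPTCL, 8.29, 16.9 and 34.9 CPM in NK, 40.0, 47.6 and 36.0 CPM in NKT and 4.26, 6.05 and 5.60 CPM in T libraries. It was high in the 3 NKT libraries and low in T cells and lymphomas: the log2 fold change was 2.93 ± 0.57 in NKT against T (adjusted p = 0.00148) and -2.16 ± 0.38 in mPTCL against NKT (adjusted p = 5.7e-05), and both calls held in all alternatives run. The intronic peak 16311 bases after the start, chr8:46755806-46756306, ran from 7.42 to 28.1 CPM in mPTCL and had 12.4, 8.47 and 9.51 CPM in NK, 48.0, 62.8 and 54.8 CPM in NKT and 40.5, 29.4 and 30.4 CPM in T libraries. It was thus open in both normal T-lineage groups and low in lymphomas and NK cells (mPTCL against NKT -1.88 ± 0.32, adjusted p = 4.6e-05; NK against NKT -2.45 ± 0.52, adjusted p = 0.0022). The peaks of Irf1 and Irf2 other than the one at 42814 bases, and the single peaks described below that are not the largest change of a comparison, were chosen after their values were seen.

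Irf1 moved the other way against T and NK cells, but unevenly along the gene. IRF1 activates interferon-stimulated and antigen presentation genes and is itself induced by interferon gamma. Irf1 had 65.2, 129.9 and 165.9 CPM in the lowest, median and highest mPTCL library, against 94.5, 60.4 and 57.0 CPM in NK, 101.1, 90.2 and 96.3 CPM in NKT and 71.5, 65.9 and 102.4 CPM in T libraries. The groups overlapped, with 7 of 9 lymphomas above all libraries of each normal group. The log2 fold change was 0.85 ± 0.26 against NK (adjusted p = 0.0198), 0.65 ± 0.23 against T (adjusted p = 0.0345) and 0.41 ± 0.22 against NKT, which was not called. Scaled within chromosome 11, these values were 0.29 and 0.14 and both calls were lost, as they were in the smaller peak table (0.65 and 0.42). The T call was also lost with only the 2 groups in the fit (0.65) and without mPTCL 3, mPTCL 7, T 1 or T 2, and the NK call without NK 2 or NK 3.

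The peak over the Irf1 start site, at chr11:53769722-53770222, had 36.1, 55.7 and 92.0 CPM in the lowest, median and highest mPTCL library, against 41.5, 33.9 and 31.7 CPM in NK, 88.1, 81.4 and 82.7 CPM in NKT and 49.0, 48.4 and 89.2 CPM in T libraries, and was not called in any lymphoma comparison. The higher signal lay beside it. The peak at -1147 bases from the start had 5.74, 19.1 and 22.4 CPM in mPTCL, 4.15, 4.23 and 9.51 CPM in NK, 0, 5.61 and 6.16 CPM in NKT and 6.39, 6.92 and 11.7 CPM in T libraries (1.79 ± 0.52 in mPTCL against NKT, adjusted p = 0.00709, held in all alternatives run). The intronic peak 4789 bases after the start, chr11:53774553-53775053, had 7.75, 16.3 and 28.9 CPM in mPTCL, 0, 0 and 3.17 CPM in NK, 4.80, 8.79 and 11.8 CPM in NKT and 8.52, 3.46 and 4.67 CPM in T libraries. With 418 counts in the lymphomas and 2 in NK cells, its pooled CPM was 13.1-fold higher in mPTCL than in NK (95% exact interval 3.62 to 109, counting error only; adjusted p = 0.00486), and it was 1.59 ± 0.53 higher on the log2 scale in mPTCL than in T (adjusted p = 0.0329). The T call was lost with TMM within each chromosome, with cyclic loess and without mPTCL 7, T 2 or T 3.

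**Figure D2:**
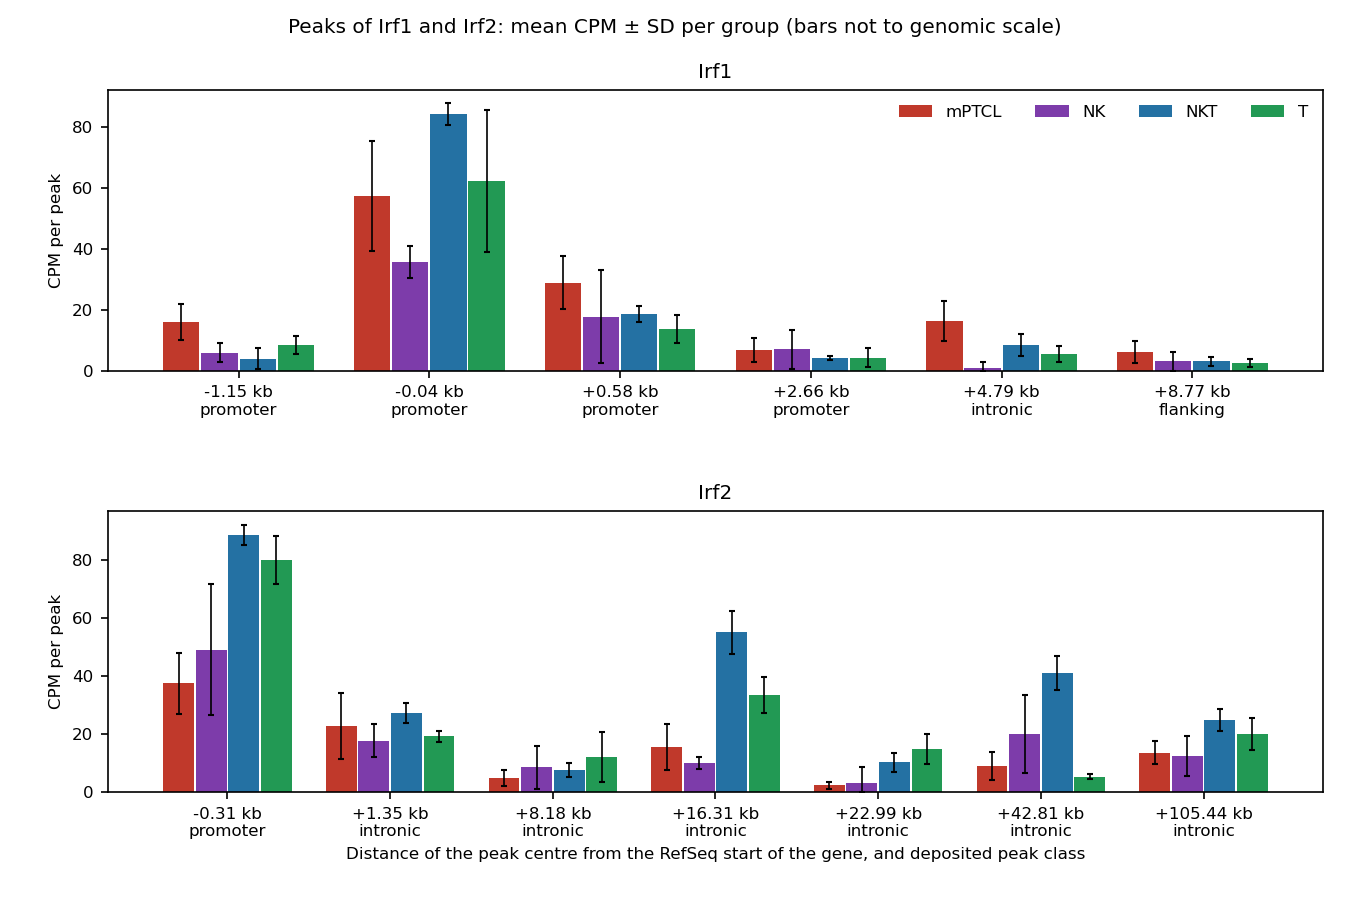
Mean CPM (± SD, lower bars stopped at 0) of each peak of Irf1 (top) and Irf2 (bottom) in mPTCL, NK, NKT and T libraries, ordered by the distance of the peak centre from the RefSeq start. At the Irf2 peak 42814 bases after the start the NKT bar stands above the other 3, with NKT libraries at 36.0 to 47.6 CPM and T libraries at 4.26 to 6.05 CPM.

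Irf3, the factor that switches on interferon beta after virus sensing, had 25.8, 47.4 and 64.0 CPM in the lowest, median and highest mPTCL library, against 45.2, 30.2 and 38.0 CPM in NK, 68.1, 82.0 and 81.5 CPM in NKT and 65.2, 33.3 and 71.5 CPM in T libraries. All lymphomas and all NK libraries lay below the NKT libraries (-0.67 ± 0.23 in mPTCL against NKT, adjusted p = 0.0188; -1.03 ± 0.33 in NK against NKT, adjusted p = 0.0362). Each call was lost in 7 alternatives (with RLE factors -0.55 and -0.88) and without NKT 2 or NKT 3. The NK call was also lost without NKT 1, NK 2 or NK 3. Irf5, Irf7, Irf8 and Irf9 were called in none of the 6 comparisons as whole genes. Cyclic loess called Irf8 lower in mPTCL than in NK (-0.71). Without NK 1, Irf9 was called higher in mPTCL than in NK (1.49) and lower in NK than in T (-1.60) and NKT (-1.74). Without mPTCL 3 or mPTCL 5 Irf8 was called lower in mPTCL than in NKT. Irf7, the master regulator of type I interferon genes, had 55.1, 61.4 and 88.8 CPM in mPTCL, against 94.5, 82.0 and 50.7 CPM in NK, 69.4, 82.7 and 73.7 CPM in NKT and 57.9, 50.0 and 87.3 CPM in T libraries. Irf8, which directs myeloid and dendritic cell development, ran from 24.6 to 47.1 CPM in mPTCL, and Irf9, the DNA-binding subunit of the type I interferon complex, from 26.6 to 67.8 CPM. Irf5, a factor of Toll-like receptor signalling, ran from 2.05 to 16.7 CPM in mPTCL. Single promoter peaks of Irf3 (shared with Bcl2l12), Irf7 and Irf8 were each lower in mPTCL than in NKT, by -1.07 ± 0.25, -1.03 ± 0.28 and -0.80 ± 0.23 on the log2 scale (adjusted p = 0.00129, 0.00513 and 0.00689). The IRF2 partners Irf2bp1, Irf2bp2 and Irf2bpl were called in no comparison as genes by edgeR with TMM over the whole genome. With TMM within each chromosome, Irf2bp1 was 0.52 ± 0.17 higher in mPTCL than in NKT (adjusted p = 0.0199). At Irf2bp2, however, the flanking peak chr8:126596109-126596609 had 3.43, 5.57 and 16.6 CPM in mPTCL, against 16.6, 4.23 and 9.51 CPM in NK, 44.0, 38.4 and 30.1 CPM in NKT and 11.7, 22.5 and 25.2 CPM in T libraries. Every lymphoma lay below every NKT library there (-2.22 ± 0.38, adjusted p = 4.5e-05, held in all alternatives run).

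The IFIT genes encode proteins that bind viral RNA lacking host cap methylation. As whole genes, 4 of the 5 were lower in mPTCL than in NKT (20.2% of all genes). The fifth, Ifit3b, was not called (-0.65 ± 0.37). With cyclic loess 4 were lower, with DESeq2 3, and with RLE factors, library totals, TMM within each chromosome or promoter peaks alone 2. Ifit1 and Ifit1bl2 share their peaks and so carry the same values. They had 4.19, 13.0 and 25.9 CPM in the lowest, median and highest mPTCL library, against 20.5, 21.6 and 22.2 CPM in NK, 30.4, 34.7 and 26.2 CPM in NKT and 25.3, 26.8 and 20.7 CPM in T libraries. All 9 lymphomas lay below the NKT libraries, and 8 of 9 lay below all T and all NK libraries. The log2 fold change was -1.22 ± 0.31 against NKT (adjusted p = 0.00308, held in all alternatives run), -0.89 ± 0.33 against T (adjusted p = 0.0441) and -0.72 ± 0.39 against NK (adjusted p = 0.191). The T call was lost in 7 of 10 alternatives, among them TMM within each chromosome (-0.67), and without any 1 of 8 libraries (mPTCL 1, mPTCL 7 and each NKT and T library). The promoter peak, chr19:34640689-34641189, covers the double ISRE core of the Ifit1 window printed above, and RefSeq places the Ifit1bl2 window on the other strand of the same stretch. It had 4.41, 12.5 and 26.5 CPM in mPTCL, 20.7, 21.2 and 22.2 CPM in NK, 36.8, 45.2 and 34.5 CPM in NKT and 29.8, 32.0 and 25.7 CPM in T libraries (-1.53 ± 0.32 in mPTCL against NKT, adjusted p = 4.1e-04, and -1.01 with no call with cyclic loess). Ifit2, a relative that binds AU-rich RNA, had 15.5, 25.6 and 35.8 CPM in mPTCL, 43.1, 25.9 and 23.8 CPM in NK, 39.6, 43.3 and 37.4 CPM in NKT and 44.4, 23.9 and 29.4 CPM in T libraries. All lymphomas lay below the NKT libraries (-0.62 ± 0.25, adjusted p = 0.0436), but this call was lost in 8 of 10 alternatives and without any 1 of 9 libraries (mPTCL 1, 5, 7, 8 or 9, any NKT library or T 3). On chromosome 19, which holds the IFIT genes, the median log2 fold change of all genes was -0.30 in mPTCL against NKT.

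The OAS genes encode enzymes that sense double-stranded RNA and make the 2'-5' oligoadenylates that switch on RNase L, and in the mouse OASL1 is known to hold back Irf7 translation. All 10 lie on chromosome 5. The family was mixed: 4 were higher and 1 lower in mPTCL than in NKT, 1 was higher than in T, and 5 were higher than in NK. Over all genes, the called shares were 25.5% (higher) and 20.2% (lower) against NKT, 16.2% (higher) against T and 11.2% (higher) against NK. The split against NKT was 3 higher and 3 lower with TMM within each chromosome and 0 and 0 with cyclic loess, and against NK 1 and 7 members were higher under these settings. Oas2 had 9.47, 19.0 and 27.1 CPM in the lowest, median and highest mPTCL library, against 4.11, 8.63 and 9.50 CPM in NK, 6.61, 6.52 and 6.44 CPM in NKT and 4.53, 2.17 and 14.3 CPM in T libraries. All 9 lymphomas lay above the NKT libraries, 8 of 9 above the NK and 6 of 9 above the T libraries. On the log2 scale the difference was 1.55 ± 0.45 against NKT (adjusted p = 0.00754, lost with cyclic loess at 0.76), 1.33 ± 0.47 against T (adjusted p = 0.0316, lost with TMM within each chromosome at 0.85) and 1.34 ± 0.56 against NK (adjusted p = 0.084). The T call was also lost without mPTCL 2, mPTCL 7, T 1 or T 2, and its value ran from 0.93 to 2.53 over the left-out libraries.

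Oas1f, in the Oas1 cluster whose mouse copies are only partly active as enzymes, was covered by 0 counts in all 3 NK libraries. It had 4.19, 13.5 and 19.9 CPM in the lowest, median and highest mPTCL library, against 2.64, 3.61 and 4.98 CPM in NKT and 1.81, 7.24 and 9.03 CPM in T libraries. With 376 counts in mPTCL and a floor of 3 counts over the NK group, it was at least 7.63-fold higher in mPTCL than in NK (adjusted p = 8.8e-04, held in all alternatives run). NK cells were at least 3.69-fold lower than T (adjusted p = 0.0314) and at least 2.22-fold lower than NKT (adjusted p = 0.0379). Both of these calls were lost without any 1 of the NK libraries. The T one was also lost without T 2 or T 3, and the NKT one without NKT 2 or NKT 3, with DESeq2 and with a mean count of at least 20. Its level in mPTCL was 1.77 ± 0.51 higher on the log2 scale than in NKT (adjusted p = 0.00731), which cyclic loess gave as 0.36 with no call. Its intronic peak, chr5:120849674-120850174, gave the bounds 7.88, 4.49 and 2.90 in the same order of comparisons. Oas1h, a neighbour in the cluster, had 2.72, 7.95 and 16.4 CPM in mPTCL, 4.11, 0 and 0 CPM in NK, 0, 1.51 and 1.35 CPM in NKT and 3.62, 1.45 and 7.90 CPM in T libraries. All lymphomas lay above the NKT libraries (2.84 ± 0.70, adjusted p = 0.00234), a call lost only with cyclic loess (0.95) among the alternatives that gave a value. Oas1a, an active synthetase, had 0 to 13.0 CPM in mPTCL and was not called by edgeR over all groups, while DESeq2 (2.45) and the fit of only those groups (2.37) called it higher in mPTCL than in NKT. Near-identical copies in this cluster could share reads, and how such reads were counted is not given in the sources used here, so single Oas1 genes are uncertain.

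Oasl1 and Oasl2, ubiquitin-like relatives of the synthetases, were lowest in NK cells and highest in NKT cells. Oasl2 had 15.5, 25.0 and 51.2 CPM in the lowest, median and highest mPTCL library, against 20.5, 8.63 and 6.33 CPM in NK, 61.4, 44.6 and 42.0 CPM in NKT and 29.9, 20.3 and 23.0 CPM in T libraries. The 3 NK libraries lay below the 3 NKT libraries, and the lymphomas lay between and overlapped both. Oasl2 was the only member called in opposite directions (share of all genes not given). The log2 fold change was -0.75 ± 0.29 in mPTCL against NKT (adjusted p = 0.034), 1.33 ± 0.43 in mPTCL against NK (adjusted p = 0.0282) and -2.08 ± 0.47 in NK against NKT (adjusted p = 0.0042). The first call was lost in 5 of 10 alternatives (with RLE factors -0.62) and without mPTCL 1 or any 1 NKT library. The second was lost with TMM within each chromosome (0.81), only the 2 groups in the fit (1.32) or promoter peaks alone (1.16) and without NK 2 or NK 3. The third held in all alternatives run. Oasl1 had 23.1, 50.8 and 69.2 CPM in mPTCL, 34.9, 21.6 and 19.0 CPM in NK, 56.8, 83.1 and 71.6 CPM in NKT and 43.5, 35.5 and 62.5 CPM in T libraries. The NK libraries lay below all NKT and T libraries (-1.51 ± 0.39 in NK against NKT, adjusted p = 0.0108; 1.0 ± 0.35 in mPTCL against NK, adjusted p = 0.0431, lost with TMM within each chromosome at 0.52, in 2 other alternatives and without any 1 of 9 libraries). Oas3, the synthetase that makes the longest products, had 45.3, 70.8 and 107.1 CPM in mPTCL, 24.6, 47.5 and 61.8 CPM in NK, 105.7, 74.8 and 70.9 CPM in NKT and 40.7, 61.6 and 57.2 CPM in T libraries, and was not called as a gene by edgeR with TMM over the whole genome. With TMM within each chromosome it was -0.68 ± 0.18 in mPTCL against NKT (adjusted p = 0.00522) and was also called lower in NK than in NKT (-0.89). In mPTCL against NK it was called higher with cyclic loess (0.79) and in the smaller table (1.16).

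**Figure D3:**
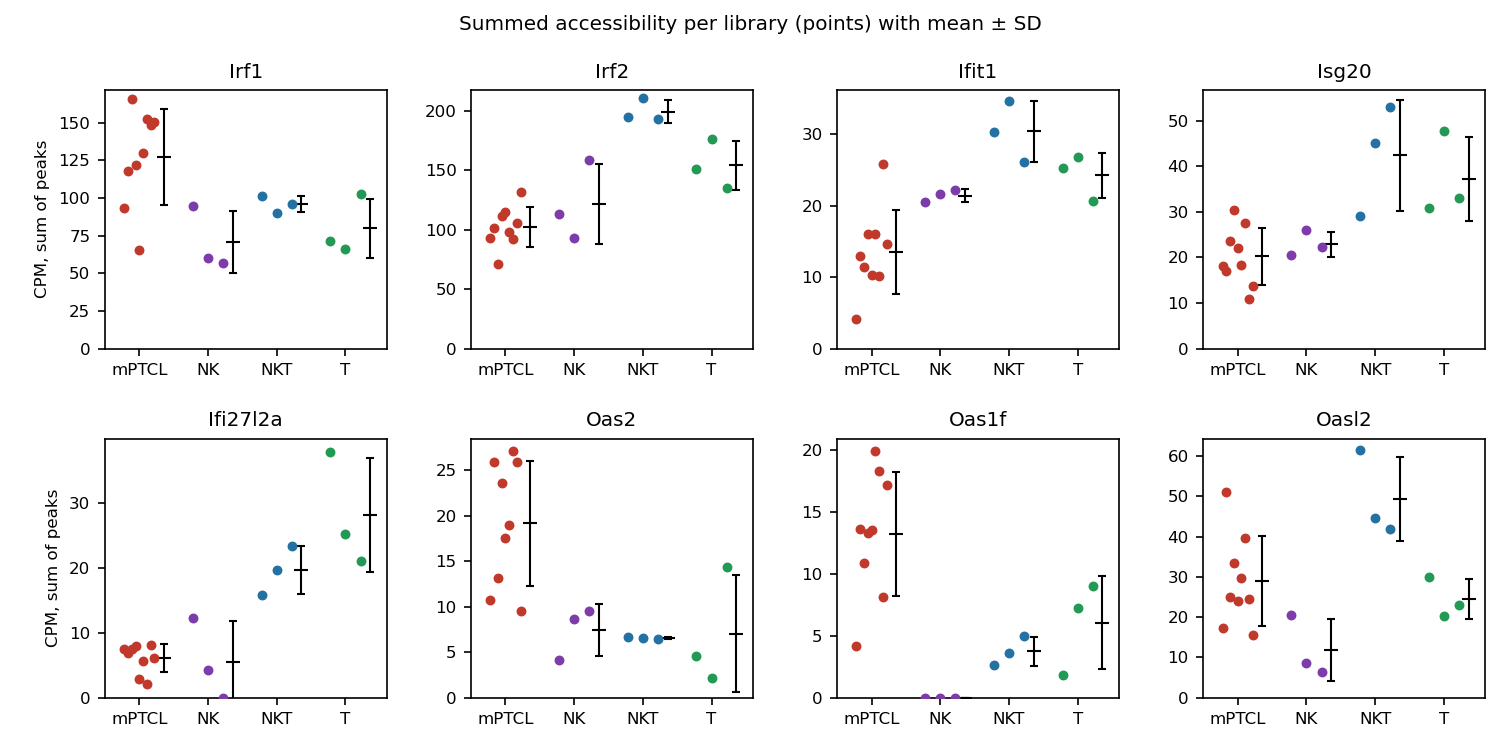
Summed CPM per library (points) with mean ± SD (bars cut at 0) for Irf1, Irf2, Ifit1, Isg20, Ifi27l2a, Oas2, Oas1f and Oasl2 in mPTCL, NK, NKT and T. These members were called the same way in 2 lymphoma comparisons, or in opposite ways (Oasl2); the 9 mPTCL points of Irf2 lie between 71.2 and 131.8 CPM, below all NKT and T points.

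The GBP genes encode guanylate-binding GTPases, strongly induced by interferon gamma, that coat intracellular pathogens. Of the 8, edgeR called 0 in any of the 6 comparisons with TMM over the whole genome. Against NKT, T and NK the family had 1 member each at an unadjusted p under 0.05, all lower in mPTCL, and DESeq2 called 0 while cyclic loess called 1 lower against NK. With TMM within each chromosome, 4 were lower in mPTCL than in NKT, 5 lower than in T and 1 lower than in NK. With TMM over the whole genome, 20.2%, 14.7% and 10.3% of all genes were lower in the same order. The shares of all genes under scaling by chromosome are not given. Scaled by chromosome, Gbp8 and Gbp9, neighbours on chromosome 5, had log2 fold changes of -1.19 ± 0.28 and -1.16 ± 0.25 against NKT (adjusted p = 0.0022 and 0.00114). Of the 8 peaks of Gbp8 and the 5 of Gbp9, 4 are shared, so these values are not independent of each other. The median log2 fold change over the 8 was -0.28 against NK, -0.44 against NKT and -0.44 against T. Gbp2 had 20.9, 40.8 and 62.6 CPM in the lowest, median and highest mPTCL library, against 30.8, 30.2 and 53.8 CPM in NK, 41.6, 40.1 and 42.1 CPM in NKT and 43.5, 42.7 and 42.5 CPM in T libraries. The NKT and T libraries lay close together with lymphomas on both sides of them, and the NK libraries overlapped the lymphomas. Gbp3 ran from 36.3 to 55.4 CPM in mPTCL and lay below all NK libraries in 9 of 9 lymphomas (-0.48 ± 0.21, adjusted p = 0.0966). Gbp4 ran from 10.3 to 66.7 CPM in mPTCL and Gbp5 from 26.5 to 56.4 CPM, and the log2 fold change of Gbp5 against T was -0.56 ± 0.23 (adjusted p = 0.0692).

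Single GBP peaks differed more than the gene sums. The intronic peak annotated to Gbp8 and Gbp9, chr5:105114779-105115279, was the only member peak called lower in mPTCL than in all 3 normal groups (share of all peaks not given). It had 0, 5.60 and 7.78 CPM in the lowest, median and highest mPTCL library, against 12.4, 12.7 and 30.1 CPM in NK, 32.0, 40.8 and 30.5 CPM in NKT and 11.7, 38.9 and 22.4 CPM in T libraries. Each of the 9 lymphomas lay below each of the 9 normal libraries. The log2 fold change was -2.68 ± 0.39 against NKT (adjusted p = 4.4e-06), -2.18 ± 0.41 against T (adjusted p = 3.0e-04) and -1.81 ± 0.48 against NK (adjusted p = 0.0143). The NKT and T calls held in all alternatives run, and the NK call was lost with only the 2 groups in the fit (-1.77) and without NK 3. The median of all chromosome 5 genes was above 0 in the same comparisons. At Gbp7 on chromosome 3, the promoter peak chr3:142529945-142530445, over the window printed above, had 7.65, 19.1 and 27.9 CPM in mPTCL, 10.4, 12.7 and 20.6 CPM in NK, 24.8, 42.8 and 40.1 CPM in NKT and 25.6, 51.0 and 31.3 CPM in T libraries. It was lower in mPTCL than in NKT (-1.10 ± 0.32, adjusted p = 0.00723) and T (-1.08 ± 0.33, adjusted p = 0.0203). These calls were lost in 5 and 2 of 8 alternatives (with RLE factors -0.64 and -0.85) and without NKT 2 and T 2. The flanking peak of the same gene, chr3:142550159-142550659, went the other way against T: it had 6.54, 22.3 and 26.8 CPM in mPTCL, 29.0, 0 and 46.0 CPM in NK, 33.6, 33.8 and 30.1 CPM in NKT and 4.26, 8.65 and 4.67 CPM in T libraries (1.61 ± 0.57 in mPTCL against T, adjusted p = 0.0414; 2.47 ± 0.63 in NKT against T, adjusted p = 0.015). Both calls were lost with cyclic loess, the first also without any 1 of 7 libraries and the second without NKT 1, NKT 2, T 1 or T 3.

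The IRG proteins are GTPases that defend against vacuolar pathogens, with Irgm1 and Irgm2 as regulators of the others, and all 3 members lie on chromosome 11. Irgm1 had 85.3, 112.2 and 147.9 CPM in the lowest, median and highest mPTCL library, against 73.9, 21.6 and 41.2 CPM in NK, 68.7, 96.9 and 82.1 CPM in NKT and 89.6, 90.5 and 102.7 CPM in T libraries. The 3 NK libraries lay below all lymphomas and all T libraries. The log2 fold change was 1.39 ± 0.27 in mPTCL against NK (adjusted p = 6.8e-04), which was lost with promoter peaks alone (0.74), and -1.05 ± 0.31 in NK against T (adjusted p = 0.0417). The T call was lost in 4 of 12 alternatives (-0.11 with promoter peaks alone) and without NKT 2, NKT 3, NK 2, NK 3 or any 1 T library. A flanking peak also annotated to Trim7 and Gm16170, chr11:48856497-48856997, had 22.4, 43.1 and 70.3 CPM in mPTCL, 18.7, 0 and 6.34 CPM in NK, 39.2, 55.0 and 42.0 CPM in NKT and 39.4, 44.1 and 49.0 CPM in T libraries (2.36 ± 0.48 in mPTCL against NK, adjusted p = 0.0018; -2.47 ± 0.53 in NK against NKT, adjusted p = 0.00212). The Irgm1 promoter peak, over the window printed above, was called in no comparison. Ifi47 had 70.5, 106.8 and 144.2 CPM in mPTCL, 90.3, 58.3 and 83.9 CPM in NK, 64.7, 111.0 and 89.6 CPM in NKT and 57.0, 58.7 and 77.9 CPM in T libraries. It was above all T libraries in 8 of 9 lymphomas (0.73 ± 0.23, adjusted p = 0.0182), and 0.22 with no call once chromosome 11 was scaled on its own, and it was not called without T 1 or T 2.

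Irgm2 as a gene ran from 43.7 to 92.4 CPM in mPTCL and was not called by edgeR with TMM over the whole genome. It was lower in mPTCL than in T with TMM within each chromosome (-0.68 ± 0.21, adjusted p = 0.0193) and in the smaller table (-0.86). It held the member peak with the largest fall against T cells. That intronic peak, chr11:58211533-58212033, had 0, 0.574 and 3.83 CPM in the lowest, median and highest mPTCL library, against 0, 0 and 3.17 CPM in NK, 3.20, 8.95 and 7.53 CPM in NKT and 12.8, 13.0 and 20.1 CPM in T libraries. The lymphomas and NK cells were near 0, with 29 and 2 counts in all, and all lymphomas lay below all T libraries. On the log2 scale the difference was -3.74 ± 0.71 in mPTCL against T (adjusted p = 3.2e-04) and -2.56 ± 0.70 in mPTCL against NKT (adjusted p = 0.00492), and both calls held in all alternatives run.

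Isg20, an exonuclease that degrades viral RNA, was lower in mPTCL than in NKT and T. It had 10.9, 18.4 and 30.4 CPM in the lowest, median and highest mPTCL library, against 20.5, 25.9 and 22.2 CPM in NK, 29.1, 45.0 and 53.0 CPM in NKT and 30.8, 47.8 and 33.1 CPM in T libraries. All lymphomas and all NK libraries lay below all T libraries, and 8 of 9 lymphomas lay below all NKT libraries. On the log2 scale the difference was -1.04 ± 0.25 against NKT (adjusted p = 0.00207, held in all alternatives run) and -0.84 ± 0.27 against T (adjusted p = 0.0208, lost with TMM within each chromosome at -0.66, in the smaller table, with promoter peaks alone and without T 2). Its promoter peak chr7:78912317-78912817 had 2.79, 6.86 and 9.38 CPM in mPTCL, 16.6, 16.9 and 9.51 CPM in NK, 12.8, 30.3 and 31.9 CPM in NKT and 14.9, 19.9 and 14.5 CPM in T libraries, so that every lymphoma lay below every normal library (-1.85 ± 0.35 in mPTCL against NKT, adjusted p = 1.7e-04; -1.21 ± 0.39 against T, adjusted p = 0.0268; -1.0 ± 0.46 against NK, adjusted p = 0.172). The T call was lost with RLE factors (-0.97), in 2 other alternatives and without mPTCL 2, 8 or 9 or any 1 T library. Isg15, a ubiquitin-like modifier and a classical interferon target, had 11.2, 18.2 and 38.1 CPM in mPTCL, 12.3, 17.3 and 6.33 CPM in NK, 18.5, 27.6 and 20.7 CPM in NKT and 13.6, 16.7 and 21.8 CPM in T libraries. Isg15 was called in no comparison, and its promoter window carries 3 overlapping ISRE cores.

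Mx1 and Mx2 belong to a family of dynamin-like antiviral GTPases. The deposited annotation types both genes as polymorphic pseudogenes, and RefSeq annotates mouse Mx2 as a transcribed pseudogene. Mx1 had 15.6, 32.1 and 58.7 CPM in the lowest, median and highest mPTCL library, against 12.3, 49.6 and 39.6 CPM in NK, 23.1, 32.8 and 30.4 CPM in NKT and 23.5, 29.0 and 19.9 CPM in T libraries. It was not called by edgeR with TMM over the whole genome, but once chromosome 16 was scaled on its own it was higher in mPTCL than in NKT (0.71, adjusted p = 0.043) and T (0.93, adjusted p = 0.0256). Mx2 had 8.75, 15.3 and 30.0 CPM in mPTCL, 39.0, 8.63 and 22.2 CPM in NK, 33.7, 30.5 and 28.7 CPM in NKT and 23.5, 34.0 and 22.2 CPM in T libraries. Of 9 lymphomas, 8 lay below all NKT libraries (-0.97 ± 0.34, adjusted p = 0.0209), and the value was -0.44 with no call once chromosome 16 was scaled on its own, a chromosome whose genes had a median of -0.54. The Mx2 call was also lost in the smaller table, with promoter peaks alone and without any 1 NKT library. The membrane protein Ifitm3, which blocks virus entry, ran from 5.44 to 17.8 CPM in mPTCL and was not called against 8.21, 12.9 and 12.7 CPM in NK, 9.25, 3.72 and 5.81 CPM in NKT or 5.43, 10.9 and 12.4 CPM in T libraries. DESeq2 (1.03) and TMM within each chromosome (1.07, adjusted p = 0.0379) called it higher in mPTCL than in NKT. Ifitm10, a family member of less known function, had 75.3, 98.0 and 188.8 CPM in mPTCL, 92.4, 84.2 and 77.6 CPM in NK, 84.6, 93.6 and 87.0 CPM in NKT and 67.9, 63.7 and 79.4 CPM in T libraries, above all T libraries in 8 of 9 lymphomas (0.60 ± 0.22, adjusted p = 0.0399). That call was lost with only the 2 groups in the fit (0.59), in the smaller table (0.56), with promoter peaks alone (0.92) and without any 1 of 8 libraries (mPTCL 1, 2, 5, 6 or 7 or any T library). With TMM within each chromosome Ifitm10 was also higher than in NKT (0.51, adjusted p = 0.0356).

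Of the other Ifi genes, Ifi27l2a showed the largest fall of a whole member gene in the lymphoma comparisons. It had 2.10, 6.82 and 8.16 CPM in the lowest, median and highest mPTCL library, against 12.3, 4.32 and 0 CPM in NK, 15.9, 19.7 and 23.4 CPM in NKT and 38.0, 25.3 and 21.1 CPM in T libraries. All lymphomas and all NK libraries lay below all NKT and T libraries. On the log2 scale the difference was -2.24 ± 0.43 in mPTCL against T (adjusted p = 3.7e-04) and -1.75 ± 0.42 in mPTCL against NKT (adjusted p = 0.00178), both held in all alternatives run, and -2.41 ± 0.70 in NK against T (adjusted p = 0.0417). The last call was lost in the smaller table, with promoter peaks alone and without NKT 2, NKT 3, NK 2, NK 3 or any 1 T library (-3.87 to -1.73 over the left-out libraries). Its promoter peak chr12:103443341-103443841 gave -2.45 ± 0.42 against T (adjusted p = 8.9e-05) and -2.06 ± 0.41 against NKT (adjusted p = 2.4e-04). Its neighbour Ifi27, which overlaps it in RefSeq, ran from 12.4 to 42.8 CPM in mPTCL, below all of the NKT libraries at 46.2, 51.3 and 49.7 CPM (-0.73 ± 0.28, adjusted p = 0.0362, lost in 7 of 10 alternatives, with RLE factors at -0.61, and without mPTCL 4 or any 1 NKT library).

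Ifi30, a lysosomal thiol reductase of antigen processing, had 6.14, 10.3 and 21.5 CPM in the lowest, median and highest mPTCL library, against 16.4, 8.63 and 9.50 CPM in NK, 2.64, 4.42 and 3.11 CPM in NKT and 5.43, 7.97 and 6.02 CPM in T libraries. All lymphomas and all NK libraries lay above the NKT libraries (1.71 ± 0.47 in mPTCL against NKT, adjusted p = 0.00501, lost with cyclic loess at 0.63 and with promoter peaks alone at 1.20). Ifi30 is a gene of antigen-presenting cells, and the summed accessibility of myeloid and Kupffer cell markers ran from 87.1 to 124.6 CPM in mPTCL, 95.0 to 135.5 CPM in NK, 52.9 to 61.6 CPM in NKT and 52.5 to 56.5 CPM in T libraries. Of those 10 markers 4 had peaks, while Adgre1, Csf1r, Lyz2, Marco, Vsig4 and Mpeg1 had none in the table analysed here. The sum over the B-cell markers with peaks (Cd79b, Pax5, Blk and Cr2) ran from 63.1 to 159.2 CPM in mPTCL, 82 to 131.4 CPM in NK, 13.2 to 31.1 CPM in NKT and 36.2 to 52.1 CPM in T libraries. All 4 were higher in mPTCL than in NKT, with a median of 2.12, while Cd79a and Ms4a1 had no peak. The part of such cells in the Ifi30 result was not tested. Ifi35, which pairs with the STAT-interacting protein NMI, lay above all normal libraries in all 9 lymphomas, with 38.2, 44.9 and 52.0 CPM in mPTCL, 34.9, 21.6 and 22.2 CPM in NK, 35.0, 36.1 and 29.9 CPM in NKT and 38.0, 27.5 and 38.0 CPM in T libraries. It was called only against NK (0.78 ± 0.25, adjusted p = 0.0281) and was 0.24 there with chromosome 11 scaled on its own. That call was also lost with only the 2 groups in the fit, in the smaller table, with promoter peaks alone and without NK 2 or NK 3.

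Ifi213, a DNA-sensor gene of the AIM2-like family, varied most among the lymphomas. Its single peak, chr1:173580179-173580679, is a promoter peak by the deposited class and lies outside the RefSeq promoter window of Ifi213. The peak had 0.265, 6.38 and 43.0 CPM in the lowest, median and highest mPTCL library, against 0, 0 and 3.17 CPM in NK, 0, 0.607 and 0.959 CPM in NKT and 2.13, 1.73 and 3.74 CPM in T libraries. As a gene, Ifi213 lay above all NKT libraries in 8 of 9 lymphomas (4.29 ± 1.12, adjusted p = 0.00353). The pooled CPM was 7.49-fold higher in mPTCL than in NK (246 against 2 counts, 95% exact interval 2.05 to 62.2, counting error only). Against NK, however, Ifi213 was not called, and 5 of 9 lymphomas lay above all NK libraries. The NKT call was lost with cyclic loess (0.87).

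Taken by peak, the lymphomas had 15 member peaks higher and 32 lower of 148 than NKT cells, where 23.2% of all peaks were higher and 19.4% lower. The median was -0.26 over the member peaks and 0.27 over all peaks. This split depended on the scaling: it was 33 higher and 14 lower with RLE factors, 29 and 21 with library totals, 41 and 18 with DESeq2, 14 and 38 with TMM within each chromosome and 5 and 12 with cyclic loess. The split also differed by class. Of the 63 promoter peaks of members, 2 were higher and 21 lower, with a median of -0.62, where 12.3% of all promoter peaks were higher and 30.3% lower, with a median of -0.32. Of the 85 other peaks, 13 were higher and 11 lower, with a median of 0.20, where 28.5% of all such peaks were higher and 14.1% lower, with a median of 0.67. With RLE factors, 5 promoter peaks were higher and 7 lower (median -0.17) and 28 other peaks higher and 7 lower (median 0.70), and with cyclic loess 3 and 3 (median -0.20) and 2 and 9 (median -0.07). Promoters made up 42.6% of the member peaks and 32.6% of all peaks, and introns 28.4% of the member peaks and 31.7% of all peaks.

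**Figure D4:**
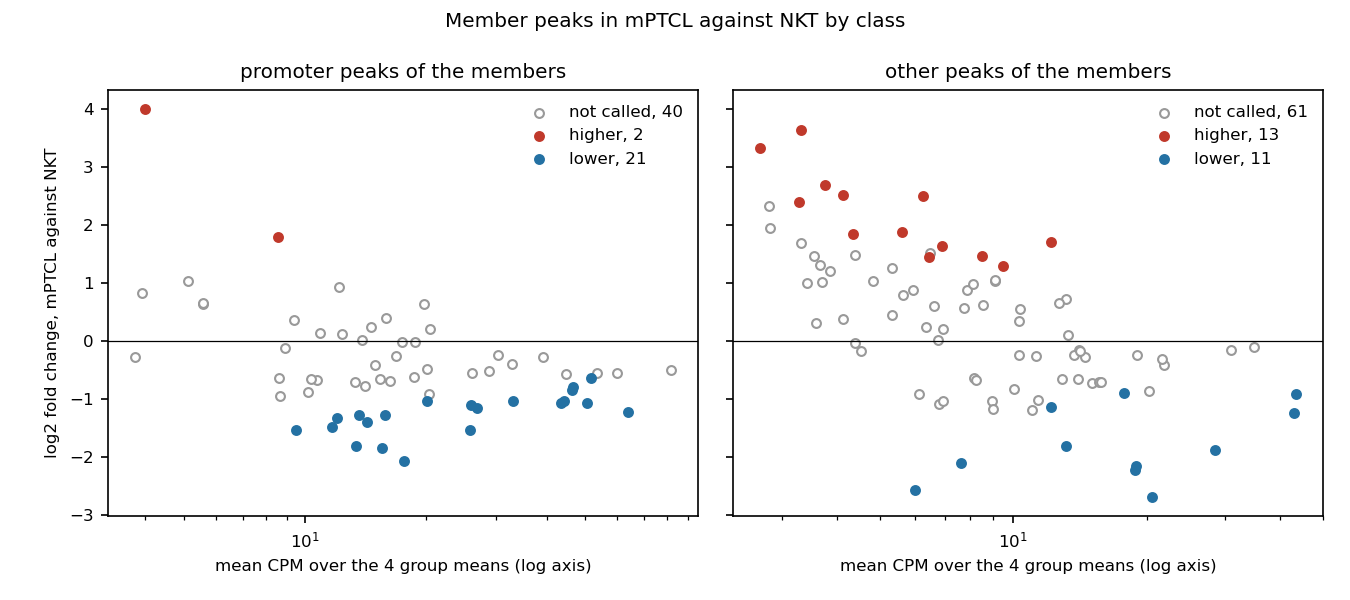
Log2 fold change of each member peak in mPTCL against NKT (vertical axis) by its mean CPM over the 4 groups (horizontal log axis), for 63 promoter peaks (left) and 85 other peaks (right). Promoter peaks hold 21 blue points (lower) and 2 red (higher), and the other peaks 11 blue and 13 red.

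Against T cells, 3 member peaks were higher and 15 lower, where 8.27% of all peaks were higher and 11.4% lower, with medians of -0.07 over the members and 0.26 over all peaks. The split was 8 higher and 7 lower with RLE factors, 6 and 8 with library totals, 19 and 11 with DESeq2 and 3 and 7 with cyclic loess. Against NK cells, 6 were higher and 1 lower, where 6.03% of all peaks were higher and 3.76% lower, with medians of 0.26 and 0.30. That split was 6 and 2 with RLE factors or library totals, 4 and 2 with TMM within each chromosome and 14 and 7 with cyclic loess. Over the 3 comparisons, 14 member peaks (9.05% of all peaks) were lower in at least 2, and 3 (6.65% of all peaks) were higher in at least 2.

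A pair of member peaks (share of all peaks not given) was called lower in mPTCL than in NKT and higher in mPTCL than in NK. One was the Oasl1 promoter peak, chr5:114921817-114922317, with 15.3, 34.3 and 57.0 CPM in the lowest, median and highest mPTCL library, against 20.7, 4.23 and 6.34 CPM in NK, 64.1, 92.3 and 80.3 CPM in NKT and 40.5, 38.1 and 63.5 CPM in T libraries. NKT cells lay above all lymphomas and NK cells below all T libraries (-1.06 ± 0.28 in mPTCL against NKT, adjusted p = 0.00424; 1.90 ± 0.46 in mPTCL against NK, adjusted p = 0.00698; -2.95 ± 0.49 in NK against NKT, adjusted p = 2.0e-04). The first call was lost in 4 of 8 alternatives (with RLE factors -0.60) and the second without NK 2 or NK 3. The other was an intronic peak of Oas3, chr5:120775461-120775961, with 19.5, 33.1 and 52.1 CPM in mPTCL, 8.29, 8.47 and 19.0 CPM in NK, 96.9, 68.8 and 72.0 CPM in NKT and 34.1, 62.3 and 48.1 CPM in T libraries (-1.24 ± 0.26 in mPTCL against NKT, adjusted p = 4.1e-04; 1.43 ± 0.39 in mPTCL against NK, adjusted p = 0.0168). The first call was lost with cyclic loess (-0.63) and the second with TMM within each chromosome (1.16) and without NK 1 or NK 2. Another Oas3 peak, in its 3' UTR at chr5:120754074-120754574, was lowest in T cells and highest in NK cells among the normal groups. It had 5.23, 10.1 and 13.7 CPM in mPTCL, 4.15, 16.9 and 20.6 CPM in NK, 1.60, 2.43 and 4.93 CPM in NKT and 0, 0 and 1.87 CPM in T libraries, so that all lymphomas and all NK libraries lay above all T libraries. On the log2 scale the difference was 3.47 ± 0.77 in mPTCL against T (adjusted p = 0.00167) and 3.95 ± 0.88 in NK against T (adjusted p = 0.00802), and both held in all alternatives run. Within 1 gene, therefore, peaks called in opposite directions were summed.

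**Figure D5:**
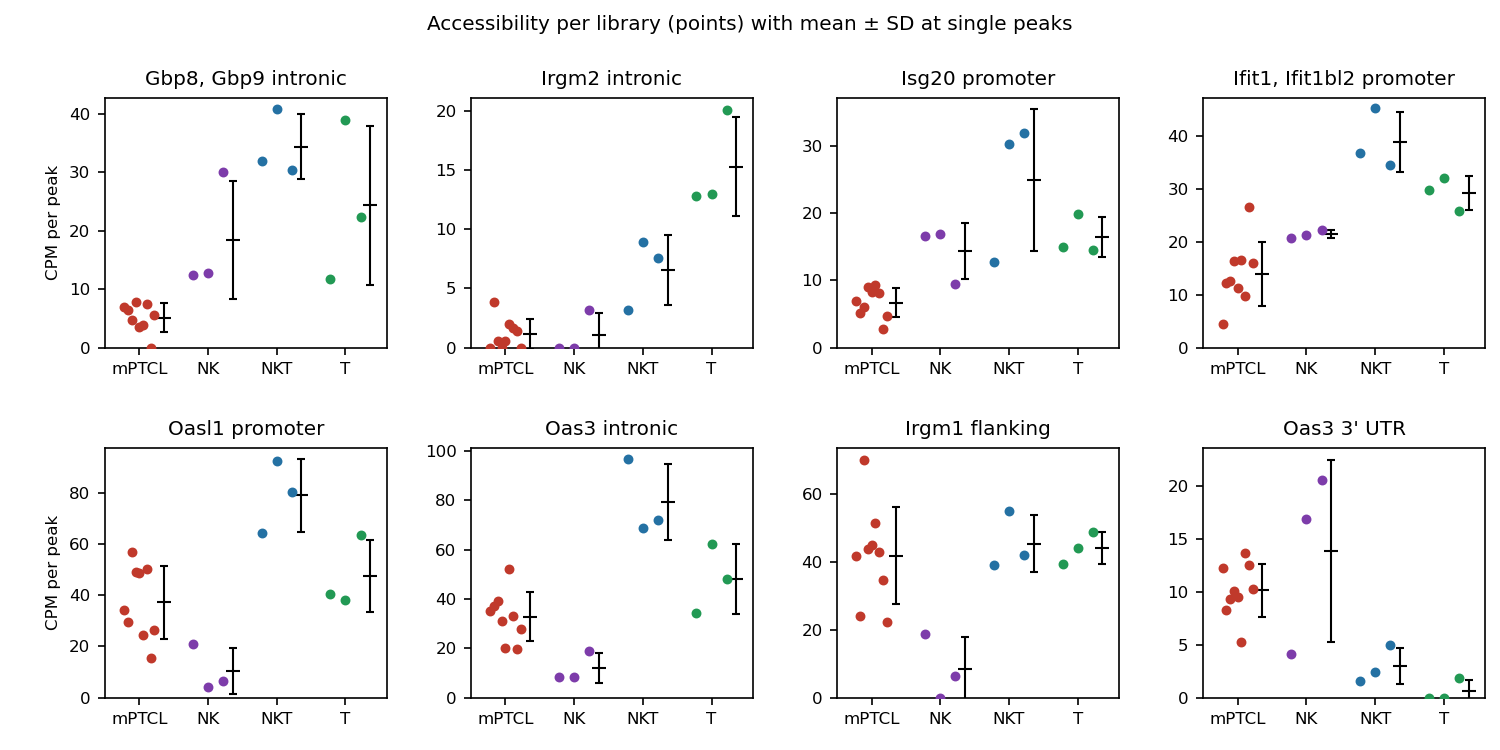
CPM per library (points) with mean ± SD (bars cut at 0) at 8 single peaks in mPTCL, NK, NKT and T. In the upper row (Gbp8 and Gbp9 intronic, Irgm2 intronic, Isg20 promoter, Ifit1 and Ifit1bl2 promoter) the lymphomas are low; at the Oas3 intronic and Irgm1 flanking peaks the 3 NK points are lowest, at the Oasl1 promoter 1 NK point (20.7 CPM) overlaps the lymphomas, and at the Oas3 3' UTR peak the T points are, at 0 to 1.87 CPM.

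Between the normal groups, fewer members differed. In NK against NKT cells 0 members were higher and 5 lower (Irf2, Irf3, Oas1f, Oasl1 and Oasl2), where 8.52% of all genes were higher and 6.31% lower, with medians of -0.30 over the members and -0.04 over all genes. The Irf2 call (-0.71) was lost in 9 of 12 alternatives and without any 1 NKT library, NK 1 or NK 2. edgeR found 1 member higher at an unadjusted p under 0.05, DESeq2 called 1 higher and 2 lower, RLE factors gave 1 and 3, and cyclic loess called 0 higher and 4 lower. In NK against T cells 0 were higher and 3 lower (Irgm1, Oas1f and Ifi27l2a), where 3.30% of all genes were higher and 2.20% lower, with medians of -0.18 and -0.06. There, edgeR found 0 members higher at an unadjusted p under 0.05, and DESeq2 and cyclic loess called 0 higher and 3 lower. In NKT against T cells edgeR called 0 members in either direction, with 4 higher and 1 lower at an unadjusted p under 0.05, and DESeq2 and cyclic loess called 0. The background was 2.32% of genes higher and 2.23% lower, and the medians were 0.20 over the members and -0.03 over all genes. The 9 normal libraries fitted alone gave 1 member higher in NKT than in T, and the 2 groups alone gave 4.

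By peak, 1 member peak was higher and 20 lower in NK against NKT, where 6.81% of all peaks were higher and 10.3% lower, with medians of -0.43 over the members and -0.17 over all peaks. Of the 20, 14 were promoter peaks. Promoter peaks as a class had medians of -0.69 over the members and -0.50 over all promoter peaks. The share of all promoter peaks called lower in NK than in NKT is not given. RLE factors or library totals gave 4 higher and 6 lower, DESeq2 6 and 8, and cyclic loess 3 and 14. With the replicate number as a block, 1 was higher and 6 lower. In NK against T, 2 were higher and 5 lower, where 2.02% of all peaks were higher and 2.77% lower, with medians of -0.39 and -0.18, and RLE factors or DESeq2 gave 4 and 5. In NKT against T, 3 were higher and 0 lower, where 3.48% of all peaks were higher and 1.75% lower, with medians of 0.16 and -0.07. These 3 were the Irf2 peak 42814 bases after the start and an exonic and a flanking peak of Gbp7. edgeR found 6 lower at an unadjusted p under 0.05, DESeq2 called 4 higher and 3 lower, and cyclic loess 1 higher and 0 lower.

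Among the 9 lymphomas, the members varied about as much as other genes. The SD of log2 CPM across lymphomas had a median of 0.46 over the 49 members (0.15 to 1.82) and 0.44 over all genes (0.08 to 2.65). Ifi213 had the widest spread, an SD of 1.82 with log2 CPM between -0.11 and 5.33, followed by Oas1a with 1.28 and Gbp10 with 1.21, all 3 of them at low levels where counting adds to the spread. Gbp8 and Gbp4, which share 2 peaks, had SDs of 0.91 and 0.90, at 18.1 to 108.9 CPM and 10.3 to 66.7 CPM. The median log2 CPM of the members minus that of all genes lay between -0.31 and 0.23 in mPTCL, -0.26 and 0.00 in NK, 0.17 and 0.32 in NKT and 0.03 and 0.22 in T libraries. The lymphomas thus lay on both sides of 0, and all NKT and all T libraries above it.

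Genes upstream of the members and other genes of the pathway were read from lists chosen by role. Their values come from the edgeR fit with TMM over the whole genome. No scaling by chromosome, other alternative or left-out library is given for them, so the stability of their calls is not shown. The shares of all genes called are 25.5% higher and 20.2% lower in mPTCL against NKT, 16.2% and 14.7% against T and 11.2% and 10.3% against NK. Of the 9 interferon genes listed, 2 had peaks: Ifng, the gene of interferon gamma, and Ifne, an epithelial type I interferon. Ifng had 31.8 ± 5.91 CPM in mPTCL (SD, n = 9), 28.9 ± 4.68 CPM in NK, 69.8 ± 5.19 CPM in NKT and 6.15 ± 3.91 CPM in T libraries (SD, n = 3 each). It was lower in mPTCL than in NKT (-1.12 ± 0.23, adjusted p = 3.9e-04) and higher than in T (2.25 ± 0.32, adjusted p = 1.5e-05). Ifne had 13.2 ± 4.59 CPM in mPTCL (SD, n = 9), 14.5 ± 9.34 CPM in NK, 1.26 ± 1.20 CPM in NKT and 6.13 ± 0.906 CPM in T libraries (SD, n = 3 each), and was higher in mPTCL than in NKT (3.07 ± 0.56, adjusted p = 1.4e-04). Of 11 receptor and signalling genes, 1 was higher and 4 lower in mPTCL than in NKT, 1 higher and 1 lower than in T, and 0 higher and 4 lower than in NK, with medians of -0.42, -0.22 and -0.33. Jak2, the kinase of the interferon gamma receptor, was lower against all 3 groups (-0.76 ± 0.18 against NKT, adjusted p = 0.00128; -0.55 ± 0.18 against T, adjusted p = 0.024; -0.76 ± 0.20 against NK, adjusted p = 0.00741). Ifngr1, a chain of that receptor, was -1.34 ± 0.21 against NK (adjusted p = 8.6e-05), and Stat2, a subunit of the type I interferon complex, was -0.92 ± 0.21 against NKT (adjusted p = 0.00109). Ifnlr1, the interferon lambda receptor, was higher than in NKT (1.59 ± 0.38, adjusted p = 0.00195) and T (1.51 ± 0.41, adjusted p = 0.00681).

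Of 11 sensors and adaptors with peaks, 1 was higher and 4 lower in mPTCL than in NKT, 1 and 2 than in T and 1 and 3 than in NK. The higher one was Dhx58, a helicase that modulates RNA sensing, in all 3 (1.32 ± 0.23 against NKT, adjusted p = 8.1e-05; 0.99 ± 0.23 against T, adjusted p = 0.00224; 1.58 ± 0.28 against NK, adjusted p = 3.2e-04). Ifih1, the sensor of long double-stranded RNA, was lower in all 3 (-0.62 ± 0.20 against NKT, adjusted p = 0.0138; -0.86 ± 0.20 against T, adjusted p = 0.00241; -1.12 ± 0.22 against NK, adjusted p = 7.4e-04). Of 7 inhibitors, 1 was higher and 3 lower than in NKT, 0 were called against T and 1 was higher than in NK. Of 33 other interferon-stimulated genes with peaks, 0 were higher and 10 lower in mPTCL than in NKT, 3 higher and 7 lower than in T, and 6 higher and 3 lower than in NK, with medians of -0.35, -0.14 and 0.14. Pml, which builds nuclear bodies, was lower than in NKT (-1.64 ± 0.28, adjusted p = 5.9e-05) and T (-1.33 ± 0.29, adjusted p = 0.00138). Trim30a, a mouse restraint on Toll-like receptor signalling, was lower than in NKT, T and NK (-1.09 ± 0.25, -1.39 ± 0.25 and -1.09 ± 0.29, adjusted p = 0.00109, 2.0e-04 and 0.00753). Tap1, the peptide transporter of antigen presentation, was low in NK cells (-1.42 ± 0.26 in NK against NKT, adjusted p = 6.3e-04; 0.97 ± 0.23 in mPTCL against NK, adjusted p = 0.00349).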

How the data were processed

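Accessibility was measured by ATAC-seq in 18 libraries. Raw read counts over 61224 peaks, as deposited, entered every test. Beside them the authors deposited log2 CPM tables, and log2 CPM recomputed from the counts lay within 0.001 of those values for 100% of entries. Per the submitters' processing notes, the tools were MACS2 2.1.2, bedtools and edgeR 3.24.3 with the mm10 build. For the aligner, duplicate removal, any Tn5 offset of read ends and the choice of peaks, the method was not given in the sources used here. Coordinates follow the deposited table, which does not state a 0-based or 1-based start. Counts were summed per symbol, so a peak with several symbols counts for each (7 peaks were shared by members).

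Groups follow the sample labels, and 0 columns were left unmapped. R 4.3.3 and edgeR 4.0.16 were used (TMM, filterByExpr, 1 two-sided quasi-likelihood fit over 18 libraries and 4 groups with 14 residual degrees of freedom), with limma 3.58.1 and DESeq2 1.42.0 as alternatives. The filter kept 20325 genes and 61220 peaks, with biological coefficients of variation of 0.297 and 0.431. P-values were adjusted by the Benjamini-Hochberg method across every feature tested, with calls at 0.05. Shares of all genes or peaks called come from the edgeR fit with TMM over the whole genome, and shares under the alternatives are not given. The SE of a log2 fold change came from its F statistic, and log2 CPM used a prior count of 2. The fits were tested on simulated counts. Floors are 3 counts over a group, and ratios against 1 to 3 counts have exact binomial intervals at 95%. Both cover counting error only, because PCR copies of a molecule could not be counted out. Depth is given with the results as total counts in peaks.

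The members and lists were chosen with earlier results of these data known. The 35 members named with values are those of a list of classical interferon genes that had peaks, the 3 largest called rises and falls of each comparison, and families of fewer than 3 genes. The 6 named peaks are the largest called rise and fall of each comparison. T 1 and T 2 were the most alike libraries of a group and still differed (chi-square per degree of freedom 2.24). Part of such a difference may be technical, so it cannot show whether libraries came from separate animals. Each library counted as 1 sample. Alternatives were the scaling (RLE, library totals, TMM within each chromosome, cyclic loess), DESeq2, filters, a fit of only the groups compared, the smaller peak table (27727 peaks), promoter peaks only and leaving out each library. Promoter windows are from RefSeq (GRCm38.p6). Results on some single genes are not reported here.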

Additional observations from a re-analysis of the deposited data

Results flagged for a closer look

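Of 41 named genes and peaks tested in the 9 lymphomas for a library far from the others, 2 had one, and chance gives about 1 in 20. Irf5 stood apart in mPTCL 2, at a log2 CPM of 1.45 from 3 counts, with the nearest other lymphoma at 3.19. The intronic peak annotated to Gbp8 and Gbp9 stood apart in mPTCL 8, the shallowest lymphoma library, at a log2 CPM of -0.36 from 0 counts, with the nearest other lymphoma at 2.08.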

How the results depend on the processing

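Counts of called members differed by over 1.5 times under some settings, and the cause was not tested. Of the 6890 values of named members under an alternative, 6557 kept their side of the threshold, 233 lost their call, 100 gained one and 0 called values turned their direction. Values with no call under either setting, such as Irf1 in mPTCL against NKT (0.41, and -0.07 with TMM within each chromosome), could change sign and are counted as kept. Few calls held in every alternative and without any 1 library. For member genes these were 5 of 17 in mPTCL against NKT, 1 of 9 against T and 1 of 8 against NK. Between normal groups they were 0 of 3 in NK against T and 1 of 5 in NK against NKT. For member peaks they were 10 of 47, 5 of 18 and 3 of 7 in mPTCL against NKT, T and NK. For genes in mPTCL against NKT (17 called), cyclic loess gave 11, and the smaller table and promoter peaks only 8 each. In mPTCL against T (9 called), the fit of only those groups and promoter peaks gave 5 each and the smaller table gave 4. In mPTCL against NK (8 called), TMM within each chromosome gave 3, cyclic loess 14, and the fit of only those groups and promoter peaks 5 each. In NKT against T (0 called), the fit of only those groups gave 4. In NK against T (3 called), the fit of only those groups and the smaller table gave 1 each and promoter peaks 0. In NK against NKT (5 called), TMM within each chromosome gave 10, DESeq2, a mean count of at least 20, the fit of only those groups and the smaller table gave 3 each, and promoter peaks 2.

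For peaks in mPTCL against NKT (47 called), cyclic loess and the smaller table gave 17 each and a mean count of at least 20 gave 25. In mPTCL against T (18 called), cyclic loess gave 10, DESeq2 30 and the smaller table gave 11, and in mPTCL against NK (7 called) cyclic loess gave 21. In NKT against T (3 called), cyclic loess and the smaller table gave 1 each, DESeq2 7 and the fit of only those groups 14. In NK against T (7 called), cyclic loess gave 12, the fit of only those groups 3 and the smaller table gave 2. In NK against NKT (21 called), RLE and library totals gave 10 each, a mean count of at least 20 gave 5, the fit of only those groups 7 and the smaller table gave 6.

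A replicate block was fitted to the 9 normal libraries. The deviations of same-numbered libraries had r from -0.0369 to 0.0465, and those of differently numbered ones from -0.0423 to 0.0623. Counting noise also lowers r, with medians of 4 to 6 counts per peak in the NK libraries. Whether the numbers pair the libraries therefore could not be decided. With the replicate block, 0, 2 and 4 genes and 4, 7 and 7 peaks were called in NKT against T, NK against T and NK against NKT. Without it, in those libraries alone (chosen after seeing the data), 1, 2 and 6 genes and 5, 9 and 10 peaks were.

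Leaving out 1 library at a time gave 10 to 20 genes and 28 to 55 peaks in mPTCL against NKT, 1 to 10 and 6 to 21 in mPTCL against T, 3 to 10 and 5 to 14 in mPTCL against NK, 0 to 0 and 1 to 4 in NKT against T, 0 to 3 and 4 to 11 in NK against T, and 2 to 6 and 10 to 21 in NK against NKT. The gene count in mPTCL against NKT was 10 without NKT 2 or NKT 3, that in mPTCL against T was 3 without T 1, 1 without T 2 and 4 without mPTCL 7, and that in mPTCL against NK was 4 without NK 2 and 3 without NK 3. In NK against T, 0 genes were called without NK 2, NK 3, T 2 or T 3 and 1 without NKT 2, NKT 3 or T 1. In NK against NKT, 2 were called without NK 2, NKT 2 or NKT 3 and 3 without NK 3 or NKT 1. The peak count was 28 without NKT 2 in mPTCL against NKT, 10 without T 1 and 6 without T 2 in mPTCL against T, and 14 without NK 1 and 11 without NK 3 in mPTCL against NK. It was 1 without NKT 2, T 1 or T 3 in NKT against T, 11 without NK 1 and 4 without NK 2, NK 3 or T 2 in NK against T, and 10 to 13 without NK 2, NK 3 or any 1 NKT library in NK against NKT.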

Other observations

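Marker sums of further cell types are given in CPM with their ranges over libraries. The endothelial and stromal sum ran from 142.1 to 238.6 in mPTCL, 135.9 to 261.3 in NK, 99.1 to 116.5 in NKT and 140.5 to 180.3 in T libraries. Over the hepatocyte markers, 2 of 6 had peaks (Alb, Apoa1, Ttr and Cyp2e1 had none), and the sum ran from 29.3 to 78.6 in mPTCL, 19.4 to 53.8 in NK, 3.96 to 14 in NKT and 11.8 to 20.7 in T libraries. The plasmacytoid dendritic cell list (3 of 4 with peaks, Irf8 among them) ran from 45.1 to 158.4 in mPTCL, 142.4 to 209.4 in NK, 141.7 to 148.8 in NKT and 155.8 to 168.4 in T libraries. The part of these cell types in the results was not tested.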
